A study of Arabidopsis thaliana with 48 samples.

Results

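The transcripts of the mitochondrial genome were followed in excised Arabidopsis leaves. Members were all rows of the count table whose gene ID starts with ATMG, the prefix of mitochondrial loci in Arabidopsis, and whose counts summed to at least 480 over the 48 libraries, a mean of 10 per library. The rule gave 32 members of 152 mitochondrial IDs and of 34262 genes in all. Every member passed the minimum count by construction, and of the 120 other mitochondrial IDs 75 had some count and 45 had none. The member closest to the minimum was ATMG00513, with a summed count of 542, and the nearest ID below it was ATMG00665, with 440.

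Mitochondria oxidise organic acids and pass the electrons along the respiratory chain, whose complexes pump protons that drive ATP synthase. Their own genome encodes ribosomal RNAs, a minority of the respiratory chain and ATP synthase subunits, some ribosomal proteins, proteins of cytochrome c biogenesis and many open reading frames of unknown function. All other subunits, the RNA polymerases and most RNA processing proteins are encoded in the nucleus and imported, so that most respiratory complexes are built from the products of separate genomes. In leaves, mitochondria also take part in photorespiration and carry alternative respiratory enzymes that bypass the proton-pumping complexes.

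The study asked how gene expression moves over time after a leaf is cut from the plant. The fourth rosette leaves of 21-day-old plants were excised and floated on MES buffer, first through 24 h of darkness at 16 °C and then under continuous white light at 22 °C. Leaves were then collected every 0.5 h from 19.5 to 27 h after this treatment, at 16 time points with 3 replicates each, and all groups shared the excision, the dark and cold treatment and the later light. There was no attached leaf or untreated leaf in the series, so every comparison is between times after treatment. The labels do not say whether replicates were separate plants, so p-values measure the spread between these libraries, which may be technical.

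Library totals ran from 23572988 to 38763552 counts, with a median of 30954455. Levels are in CPM, the count scaled to a common library size. Of the leaf markers, RBCS1A (the small subunit of Rubisco) had 1799 to 6416 CPM, LHCB1.1 and LHCB2.1 (light-harvesting proteins) at least 1359 CPM, and CA1 (carbonic anhydrase) 23.1 to 695 CPM. Of the root markers COBL9 and BGLU21 were at 0 in 44 and 48 libraries, while PYK10 had at most 30.1 CPM (median 12.1) and NRT2.1 had 1.32 to 6.53 CPM. The pollen markers VGD1 and PGA3 were at 0 in 46 and 44 libraries. The libraries 22.5 h replicate 1 and 24 h replicate 3 were known from earlier results of these data to stand apart from their time points, and counts that rest on them are given with and without them.

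The members together held 1717236 counts, or 99.7% of all mitochondrial counts and 0.115% of all counts. ATMG00020 held 55.2% of the members' counts and ATMG01390 39.5%, so that these IDs made up 94.8% of the signal and the other 30 members shared the rest. These are shares of reads, not corrected for gene length, for which no value was available. The next most counted members were ATMG01360 (13682 counts), ATMG00090 (8655 counts), ATMG01380 (5904 counts) and ATMG00640 (5775 counts), and 10 members had a mean under 1 CPM. Only 9 of the 32 IDs are annotated in the sources used here, and the other 23 are given by ID alone. Among those, ATMG00020, ATMG01390 and ATMG01380 stood on a list of ribosomal RNAs drawn up for this report, not taken from these sources.

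Of the annotated members, ATMG01080 and ATMG01090 are noted in RefSeq as subunit 9 of the mitochondrial ATP synthase, the subunit that forms the proton-carrying ring of the enzyme. RefSeq gives such notes on nuclear loci that match the IDs, not on the IDs themselves. Its mitochondrial genes hold atp9 as a single entry of 225 bases, so the notes do not show that both IDs are that gene. ATMG01320 is noted as NADH dehydrogenase 2B, part of a proton-pumping subunit of complex I. ATMG00560 is noted as a nucleic acid-binding protein with an OB fold, and its nuclear copy as a constituent of the large ribosomal subunit. ATMG00040, ATMG00690 and ATMG01410 are the open reading frames ORF315, ORF240A and ORF204, while ATMG01220 is an unknown protein and ATMG01330 is known only from a nuclear pseudogene that resembles it.

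The summed share of the members ran from 0.0548% of counts in 23.5 h replicate 2 to 0.238% in 22.5 h replicate 1, with a median of 0.109%. It was high at 21 h, with 0.139%, 0.231% and 0.201% in the 3 replicates, and at 21.5 h, with 0.168%, 0.142% and 0.226%. It was low at 23.5 h, with 0.0642%, 0.0548% and 0.0690%. The 21 h and 21.5 h libraries were all above the 23.5 h libraries, and the 21 h mean of 0.190% ± 0.0471 (SD, n = 3) was 3.04 times the 23.5 h mean of 0.0627% ± 0.00724 (SD, n = 3). These times were picked because their means were the highest and the lowest, so this ratio is a description without a test. Without ATMG00020, ATMG01390 and ATMG01380, the members on the list of ribosomal RNAs, the ratio was 1.59, so that much of it rested on these IDs.

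**Figure D1:**
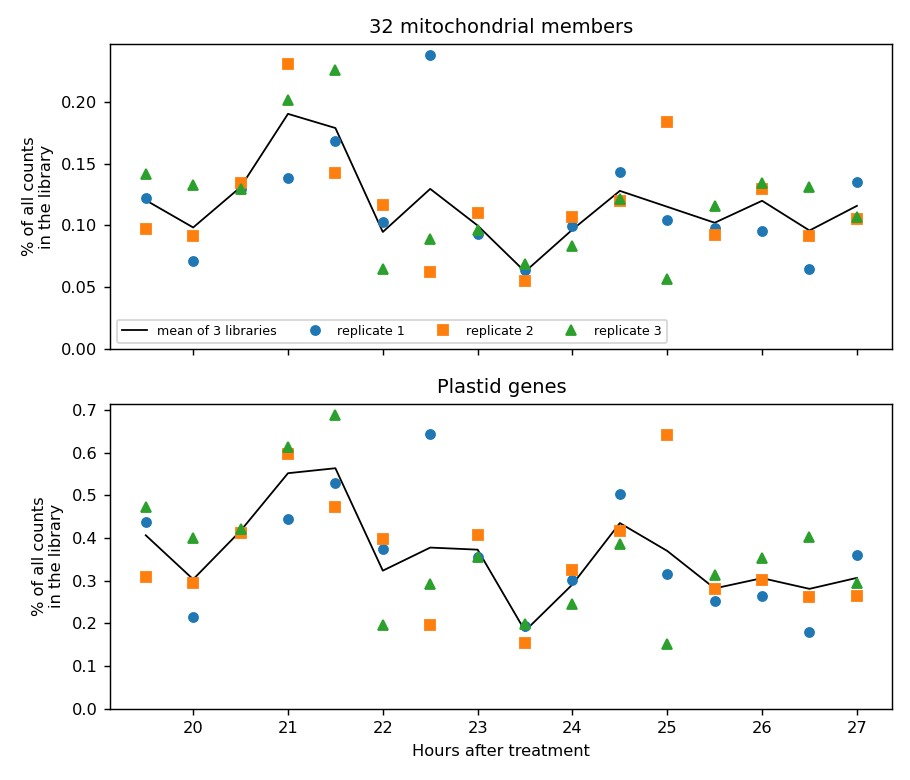
Share of each library's counts taken by the 32 mitochondrial members (top) and by plastid genes (bottom), in percent, against hours after treatment. Symbols are the 3 replicates and the line is their mean; both shares were high at 21 and 21.5 h and low at 23.5 h, and 22.5 h replicate 1 had a mitochondrial share of 0.238%, above every other library.

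Replicates of a time point disagreed at some times. At 22.5 h the share was 0.238%, 0.0620% and 0.0892%, so that replicate 1 was above every 21 h library and the other replicates were below every 21 h library. At 25 h the replicates had 0.104%, 0.184% and 0.0570%. At 20.5 h, in contrast, all 3 lay between 0.129% and 0.134%. The plastid share moved alongside, from 0.152% to 0.688% over the libraries, and the ratio of plastid to mitochondrial counts stayed between 2.32 and 3.80. Of the 83 plastid genes that pass the same minimum, 51 had their highest mean at 21 or 21.5 h and 53 their lowest at 23.5 h. The part that this shared movement has in the results below was not tested. In whole leaves, fewer cells of a type and less of an RNA per cell cannot be told apart.

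From here on, member levels are CPM with the library total scaled by its TMM factor, which corrects for differences in RNA composition and is the scale of the tests. The most counted member, ATMG00020, had 749.7, 1369 and 1132 CPM at 21 h and 1108, 968 and 1447 CPM at 21.5 h. At 23.5 h it had 361, 283 and 383 CPM, below all 6 of those libraries. At 22.5 h replicate 1 had 1482 CPM, the highest of all libraries, against 332 and 473 CPM in the other replicates. At the ends of the window, ATMG00020 had 713, 570.5 and 855 CPM at 19.5 h and 697, 516 and 525 CPM at 27 h, which overlap.

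ATMG01390 followed the same course at a lower count. It had 617, 1031 and 805 CPM at 21 h against 260.3, 193 and 268 CPM at 23.5 h, with no overlap. The ratio of ATMG00020 to ATMG01390 stayed between 1.22 and 1.53 in all 48 libraries, while the level of ATMG00020 itself ran from 258 to 1482 CPM. A member with far fewer counts, ATMG01360, had 14.1, 12.8 and 18.9 CPM at 21.5 h and 6.89, 5.01 and 6.83 CPM at 23.5 h, again with no overlap. ATMG00090 ran from 3.50 to 10.3 CPM over the libraries and ATMG00640 from 2.08 to 8.60 CPM, and both were highest in 22.5 h replicate 1.

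Across the members, the highest time-point mean was 1.47 to 10.5 times the lowest, with a median of 2.43, against a median of 1.64 over all 19168 genes tested and 3.05 over the plastid genes. The highest mean fell at 21 or 21.5 h in 27 of the 32 members, a property of 19.0% of all genes. The exceptions were ATMG01370, ATMG01090, ATMG00040, ATMG01410 and ATMG00110. The lowest mean fell at 23.5 h in 14 members, against 5.27% of all genes. All 3 libraries of 21 h lay above all 3 of 23.5 h in 17 members, against 13.6% of all genes, and below them in 1 member, ATMG01370, against 16.5% of all genes. In the other 14 members the libraries overlapped. These counts describe times chosen from the members' own levels.

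**Figure D2:**
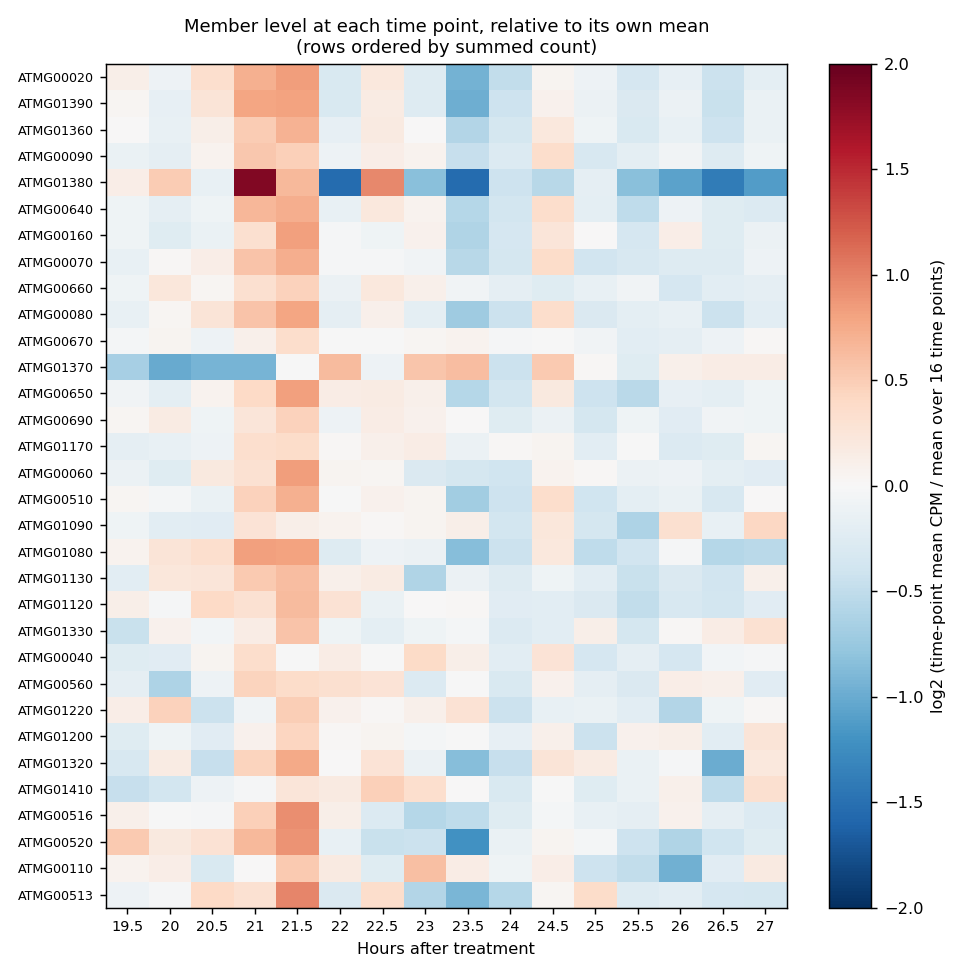
Level of each of the 32 members at each of the 16 time points, as log2 of the mean CPM of 3 libraries over the member's mean across time points (colour), with members in rows ordered by summed count and hours after treatment in columns. Most rows are red at 21 and 21.5 h, ATMG01380 spans the widest range (10.5-fold) and ATMG01370 runs the other way.

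ATMG01380 varied the most. It had 14.4, 23.4 and 8.35 CPM at 21 h, from 456, 656 and 253 counts, and a mean of 1.46 ± 0.438 CPM (SD, n = 3) at 23.5 h, from 68, 41 and 46 counts. The 21 h mean was 10.5 times the 23.5 h mean, against a median of 1.74 over the members. At 22.5 h replicate 1 had 22.6 CPM and the others 0.935 and 1.42 CPM. By 26.5 h it had 0.720, 0.551 and 3.55 CPM. The highest time-point mean of ATMG01380 was 10.5 times its lowest, against 3.43 times in ATMG00020 and 3.44 times in ATMG01390.

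ATMG01370 ran against the rest. It had 0.666, 1.01 and 1.33 CPM at 20 h and 1.71, 0.463 and 0.991 CPM at 21 h, when most members were near their highest. It then had 2.62, 3.46 and 3.30 CPM at 22 h and 2.81, 2.83 and 3.66 CPM at 23.5 h, and every library of these times was above every library of 20 and 21 h. In 22.5 h replicate 1 it had 0.592 CPM against 2.36 and 2.65 CPM in the other replicates, so that this library was low for ATMG01370 and high for most other members. Counts behind these values were small, 15 to 33 at 20 h and 92 to 118 at 22 h.

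**Figure D3:**
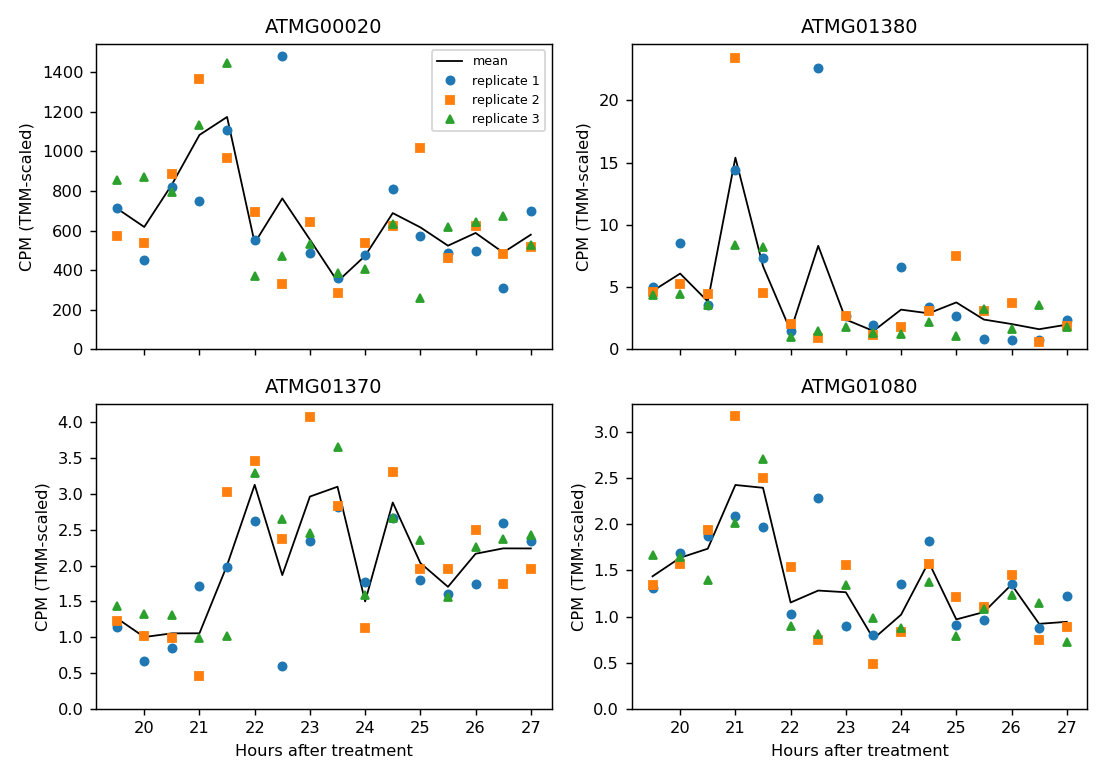
CPM (TMM-scaled, linear axes from 0) of 4 members in each library against hours after treatment, with the 3 replicates as symbols and their mean as a line. ATMG00020, ATMG01380 and ATMG01080 were high at 21 h and low at 23.5 h, ATMG01370 was low at 21 h and high at 23.5 h, and 22.5 h replicate 1 lay nearer to the 21 h than to the 23.5 h libraries in all 4 panels.

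ATMG01080 and ATMG01090, whose notes share the name of ATP synthase subunit 9 but which may be different genes, had different time courses. ATMG01080 had 2.09, 3.17 and 2.01 CPM at 21 h and 0.804, 0.485 and 0.988 CPM at 23.5 h, with no overlap. ATMG01090 had 1.42, 1.57 and 1.88 CPM at 21 h and 1.55, 1.13 and 1.68 CPM at 23.5 h, which overlap. At 25.5 h ATMG01090 had its lowest mean, 0.882 ± 0.0658 CPM (SD, n = 3), and at 27 h its highest, 1.80 ± 0.237 CPM (SD, n = 3). Over the window ATMG01080 fell by 0.95 ± 0.18 (SE) on the log2 scale, with an adjusted p of 4.35e-05, while ATMG01090 had a fitted change of 0.07 ± 0.13 with an adjusted p of 0.676. The difference between the 2 IDs was not tested.

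Of the other annotated members only ATMG00690 passed a test with edgeR under TMM on all libraries. ATMG01330 was called rising with library totals (adjusted p 0.0241 by edgeR). Without 22.5 h replicate 1 it was called higher at 27 h than at 19.5 h (adjusted p 0.0470 by edgeR). ATMG01320, the only annotated member noted as a complex I subunit, had 0.904, 0.938 and 0.629 CPM at 21.5 h. It had 0.258, 0.323 and 0.232 CPM at 23.5 h. Its joint test gave an adjusted p of 0.0606, or 0.0393 without 22.5 h replicate 1. Members given by ID alone may also be complex I subunits. ATMG00560 ran from 0.311 to 1.35 CPM over the libraries, with an adjusted p of 0.180. ORF240A (ATMG00690) had a fitted fall of 0.37 ± 0.12 (SE) on the log2 scale, with an adjusted p of 0.00919, and levels from 1.32 to 2.96 CPM. ORF315 (ATMG00040) ran from 0.580 to 1.46 CPM and ORF204 (ATMG01410) from 0.0959 to 1.07 CPM, with adjusted p of 0.187 and 0.534 in the joint test. ATMG01330 ran from 0.449 to 1.60 CPM and ATMG01220 from 0.184 to 0.899 CPM, with adjusted p of 0.154 and 0.230 in the joint test.

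In the joint test of the 16 time points (edgeR's quasi-likelihood F test, Benjamini-Hochberg adjusted over 19168 genes, threshold 0.05), 17 of 32 members passed, or 20 at an unadjusted p under 0.05. The background was 61.4% of all genes, or 12810 of the 19168 at an unadjusted p under 0.05, so the members passed no more often than genes at large. The smallest adjusted p was that of ATMG01080 (0.000368), followed by ATMG01370 (0.000860), ATMG01380 (0.00456) and ATMG01090 (0.00538). ATMG00020 and ATMG01390 passed with 0.0177 and 0.0108. The largest adjusted p were those of ATMG01200 (0.947) and ATMG00670 (0.681), the latter with 1.41 to 2.97 CPM over all libraries. Without replicate 2 no member passed, when 8.21% of all genes did. Without replicate 1 the count was 7 against 38.5%, and without replicate 3 it was 5 against 47.0%. Without 22.5 h replicate 1 it was 22, for which the share of all genes is not given here. Without this library and 24 h replicate 3 that share was 67.9%. With library totals in place of TMM the count was 10 against 76.3%.

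The slow trend over the window was taken from the linear time term, as the fitted log2 change from 19.5 to 27 h. It was a fall in 13 members (background 26.5%) and a rise in 1, ATMG01370 (background 27.2%). ATMG01380 fell by 1.79 ± 0.46 (SE) on the log2 scale, with an adjusted p of 0.00142. ATMG00520 fell by 0.96 ± 0.26 with an adjusted p of 0.00266, and ATMG01120 by 0.75 ± 0.15 with an adjusted p of 0.000129. The most counted members, ATMG00020 and ATMG01390, fell by 0.69 ± 0.22 and 0.59 ± 0.21, with adjusted p of 0.0101 and 0.0203. ATMG01080 fell by 0.95 ± 0.18 with an adjusted p of 4.35e-05. The smallest fall that passed was that of ATMG00690, and the remaining 6 falls lay between 0.46 and 0.55. ATMG01370 rose by 0.96 ± 0.21 with an adjusted p of 0.000331. The median over the members was a log2 change of -0.43, against 0.01 over all genes and -0.48 over the 83 plastid genes, of which 41 fell and 14 rose.

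**Figure D4:**
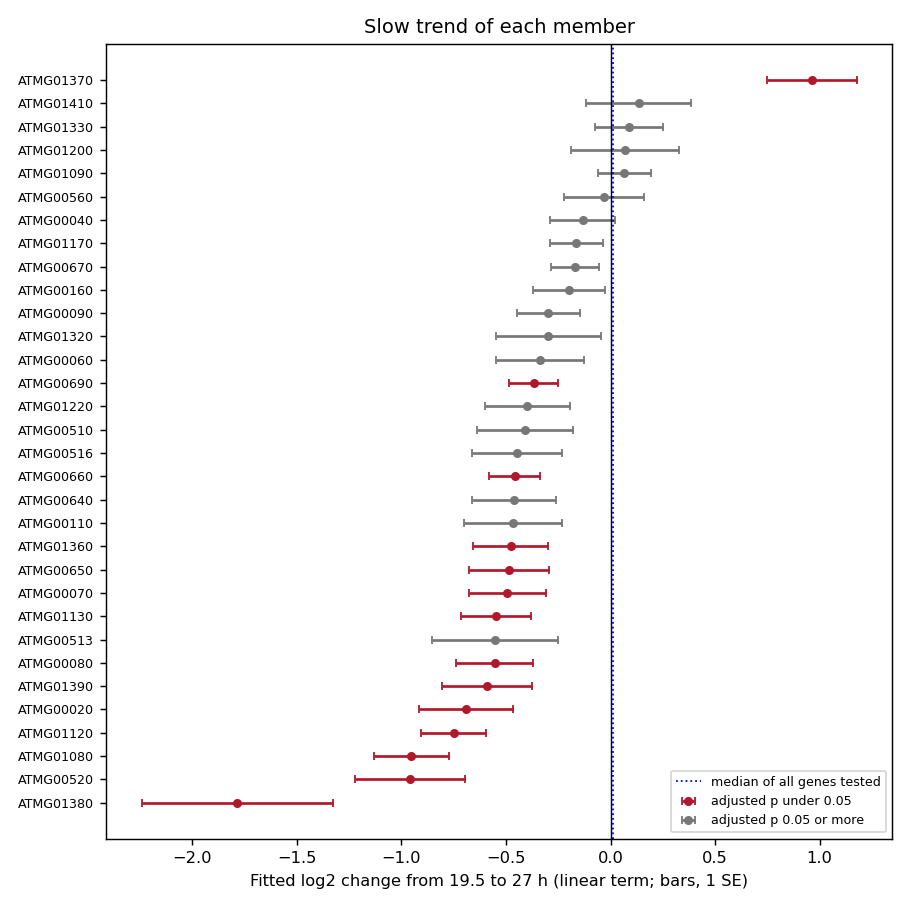
Fitted log2 change from 19.5 to 27 h of each of the 32 members (points, bars 1 SE), sorted by size, with members past an adjusted p of 0.05 in red and others in grey. The dotted line is the median of all genes tested (0.01); 27 members lie below 0, 13 of them past the threshold, and ATMG01370 lies apart at 0.96.

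The direction of these trends was read against a scale that itself moved. With library totals in place of TMM, the median trend of all genes was 0.32, and that of the members was -0.12. Relative to all genes the members then lay at -0.45, against -0.44 under TMM. Members with a falling fitted trend numbered 20 of 32 under library totals and 27 under TMM. Of the 13 falls 4 still passed with library totals, when 9.43% of all genes fell and 60.5% rose, none changed sign, and ATMG01370, ATMG01090 and ATMG01330 were called rising. Without replicate 3, falls numbered 5 of 32, against 22.4% of all genes, so that the members then fell less often than genes at large.

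The trend did not appear as a difference between the ends of the window. No member was called higher or lower at 27 h than at 19.5 h with edgeR under TMM on all libraries (backgrounds 12.9% and 15.6%). At an unadjusted p under 0.05, 3514 of 19168 genes were higher at 27 h, and 3 members passed, all higher. These were ATMG01370, with a log2 difference of 0.82 ± 0.37 (SE), ATMG01090 with 0.50 ± 0.21 and ATMG01330 with 0.72 ± 0.29. limma-voom called 1 member higher, ATMG01410, and DESeq2 none. Of the 32 members 13 had a higher and 19 a lower fitted level at 27 h, with a median log2 difference of -0.03.

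Variation with periods of 2 to 5 h, the range in which the study looked for a rhythm after excision, was tested with 6 cosine and sine terms with periods from 4 to 2 h. It was called in 1 member, ATMG01080, at an adjusted p of 0.0485, against 5.76% of all genes. An unadjusted p under 0.05 was reached by 18 members, against 5387 of 19168 genes. The count of called members turned on 1 library. Without 22.5 h replicate 1, 15 members were called, ATMG01080 among them, against 21.3% of all genes. ATMG00020 then had an adjusted p of 0.00267 (0.0792 with the library), ATMG01390 one of 0.000693 (0.0527) and ATMG01370 one of 0.0172 (0.139). Without 24 h replicate 3 alone the count was 2 against 15.7%, and without both libraries it was 16 against 28.6%. Leaving out whole replicates gave 3 members without replicate 1 (2.47% of all genes) and none without replicate 2 (0.0%) or replicate 3 (8.69%). DESeq2 called 11 members on all libraries, against 17.4% of all genes.

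The library at 22.5 h replicate 1 differed from its time point in most members. It was above both other 22.5 h libraries in 27 members and below both in 3, while 38.6% of all genes were above and 42.6% below. Its level was 0.236 to 19.1 times the mean of the other libraries, with a median of 1.99, and it was the highest of all 48 libraries in 7 members. The libraries at 22.5 h were labelled as 1 time point, and the label of this library was kept.

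Variation faster than 2 h was called in 1 member, ATMG01090, at an adjusted p of 0.00916, against 33.2% of all genes. An unadjusted p under 0.05 was reached by 5 members, against 8951 of 19168 genes. The levels of ATMG01090 changed between neighbouring times, from 0.882 ± 0.0658 CPM at 25.5 h to 1.68 ± 0.442 at 26 h and 1.22 ± 0.122 at 26.5 h (SD, n = 3 each). Without both libraries 5 members were called, against 39.2% of all genes. Without 22.5 h replicate 1 alone 5 were called, for which the share of all genes is not given here.

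Much of the mitochondrial sequence also occurs in the nucleus. In the TAIR10.1 assembly, of which the nuclear chromosomes and the mitochondrial chromosome were compared, 67.6% of the 100-base stretches of the mitochondrial chromosome had an exact copy in the nuclear chromosomes, nearly all on chromosome 2 (67.6%) and 0.844% on chromosome 1. The reference notes name a nuclear copy for 53 of the 152 mitochondrial IDs. Of these 53 IDs 6 were members and 26 had a summed count of 5 or less, with a median of 10. Of the 99 IDs with no noted copy 26 were members and 46 had a summed count of 5 or less, with a median of 25. IDs with hardly any counts made up similar shares of both, and members a smaller share of the 53. The notes miss some copies, as none names nad6 or nad7, of whose stretches 100% and 90.1% occurred in the nucleus. The comparison therefore cannot show what copies do to the counts. How reads that match both genomes were treated is not given in the sources used here, and the part of these copies in the counts was not tested.

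Some IDs noted as subunits of respiratory complexes had fewer counts than their nuclear copies. The ID noted as apocytochrome b (ATMG00220), the core of complex III, had 3 counts over 48 libraries, while its nuclear copy AT2G07727 had 1224. The ID noted as ATP synthase subunit 1 (ATMG01190) had 422 and its copy AT2G07698 had 5073. The ID noted as cytochrome c oxidase subunit 3 (ATMG00730) had 271 and its copy AT2G07687 had 1206. Every 100-base stretch of AT2G07727 and AT2G07687 occurred on the mitochondrial chromosome, and 96.1% of those of AT2G07698 did. Among the RefSeq mitochondrial genes, the ribosomal RNA genes rrn18, rrn26 and rrn5 and the genes cox1, nad9 and atp4 had no 100-base stretch in the nucleus, whereas all stretches of cob, cox3, atp1 and atp9 did.

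For a member, the case is ATMG01080. It had 1959 counts and its nuclear copy AT2G07671 had 1894, and every 100-base stretch of AT2G07671 occurred on the mitochondrial chromosome. AT2G07671 ran from 0.485 to 3.13 CPM and ATMG01080 from 0.485 to 3.17 CPM. The nuclear ID had a fitted fall of 0.54 ± 0.22 (SE) on the log2 scale, with an adjusted p of 0.0374. Reads of these IDs cannot be told apart where the sequences are the same, so the level of ATMG01080 is uncertain, as is that of ATMG00560, whose copy AT2G07715 had 2644 counts against 1073. Of the nuclear copies, 7 reached the minimum count, 1 of which fell and none of which rose.

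The nuclear partners of the mitochondrial genes were compared through 7 lists of 105 tested genes. Of the 70 tested nuclear genes for complexes I to V and cytochrome c, 30 fell and 4 rose under TMM, with a median log2 trend of -0.09, where 26.5% of all genes fell and 27.2% rose. Nuclear complex I subunits fell most often, with 17 of 28 falling and none rising. By contrast, 12 of 24 nuclear genes for mitochondrial transcription, RNA processing and DNA maintenance rose and 1 fell, with a median of 0.20. Under TMM no complex I subunit was called higher or lower at 27 h than at 19.5 h (median log2 difference -0.01). Of the 70 genes 4 were called higher and 1 lower, with a median of 0.06. Of the 24 genes 7 were called higher and 1 lower, with a median of 0.19. The backgrounds were 12.9% and 15.6%. The signs of the nuclear trends depended on the scale, which moved all genes. With library totals 60.5% of all genes rose and 9.43% fell, with a median of 0.32 over all genes. No complex I subunit then fell and 15 of 28 rose, with a median of 0.13, so that complex I lay below the median of all genes on both scales. Over the 7 lists 78 genes rose and 2 fell with library totals, against 19 and 33 under TMM. The rises of the RNA and DNA genes numbered 22 of 24 with library totals, with a median of 0.51, above that of all genes on both scales.

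In complex I, AT2G33220, a GRIM-19 family subunit, had 78.7 ± 2.27 CPM at 19.5 h and 72.2 ± 0.757 CPM at 27 h (SD, n = 3 each), with a fitted fall of 0.36 on the log2 scale. AT5G47570 and AT1G16700, other complex I subunits, fell by 0.40 and 0.36, and with library totals none of the 3 passed. In complex II, SDH5, SDH4 and SDH3-2 fell by 0.15, 0.16 and 0.14 under TMM and were called rising with library totals. In complex III, AT5G40810 (cytochrome c1), AT4G32470 and AT5G13440 (the Rieske iron-sulfur protein) fell by 0.27, 0.19 and 0.17 under TMM. With library totals AT4G32470 and AT5G13440 were called rising, and AT5G40810 had a positive fitted trend that did not pass. In complex V, AT5G47030 and the near-identical beta subunit genes AT5G08670 and AT5G08680, whose reads can be exchanged, fell by 0.20, 0.20 and 0.19 under TMM and had positive fitted trends with library totals.

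In complex IV, AT3G15640, a nuclear subunit of cytochrome c oxidase, rose from 52.4 ± 1.55 CPM at 19.5 h to 87.2 ± 5.98 CPM at 27 h (SD, n = 3 each), with a fitted rise of 0.76 ± 0.09 (SE) and an adjusted p of 1.38e-08 by edgeR. AT5G61310 rose by 0.29 on the log2 scale. AT4G37830 fell by 0.27 under TMM and had a positive fitted trend with library totals.

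Larger changes were in the alternative respiration genes, of which 3 rose and 2 fell among 11 tested. NDA1, an alternative NADH dehydrogenase of the inner membrane that bypasses complex I, had 112 ± 11.0 CPM at 19.5 h and 11.7 ± 3.40 CPM at 27 h (SD, n = 3 each), with a fitted fall of 2.07 ± 0.31 (SE) and an adjusted p of 1.29e-06 by edgeR. NDB1, of the same group but facing the intermembrane space, fell by 0.45 on the log2 scale. AT2G21640, a marker of oxidative stress, rose by 1.30 with levels from 0.855 to 4.74 CPM. The alternative oxidase AOX1A, which takes electrons from ubiquinone to oxygen, had a fitted change of -0.02 ± 0.13, with levels of 32.1 to 113 CPM. Another alternative oxidase gene, AOX1D, rose by 2.01 ± 0.61 (SE) on the log2 scale, with an adjusted p of 0.00613 by edgeR, and ran from 1.04 to 147 CPM over the libraries. NDB4, another external dehydrogenase, rose by 1.08 ± 0.19 (SE). AOX1D and NDB4 are named after their values were seen. AOX1D, NDB4, NDA1, NDB1 and AT2G21640 kept their direction and their calls with library totals.

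Of the RNA and DNA genes, AT5G15700, a phage-type RNA polymerase of mitochondria and plastids, rose by 1.01 ± 0.10 (SE) on the log2 scale, from 7.73 ± 0.510 CPM at 19.5 h to 15.6 ± 2.42 CPM at 27 h (SD, n = 3 each), with an adjusted p of 2.26e-09 by edgeR. MGP3 (AT1G68990), the mitochondrial RNA polymerase, rose by 0.50 and AT1G06710, mitochondrial stability factor 1, by 0.65. All 3 rose with library totals too.

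**Figure D5:**
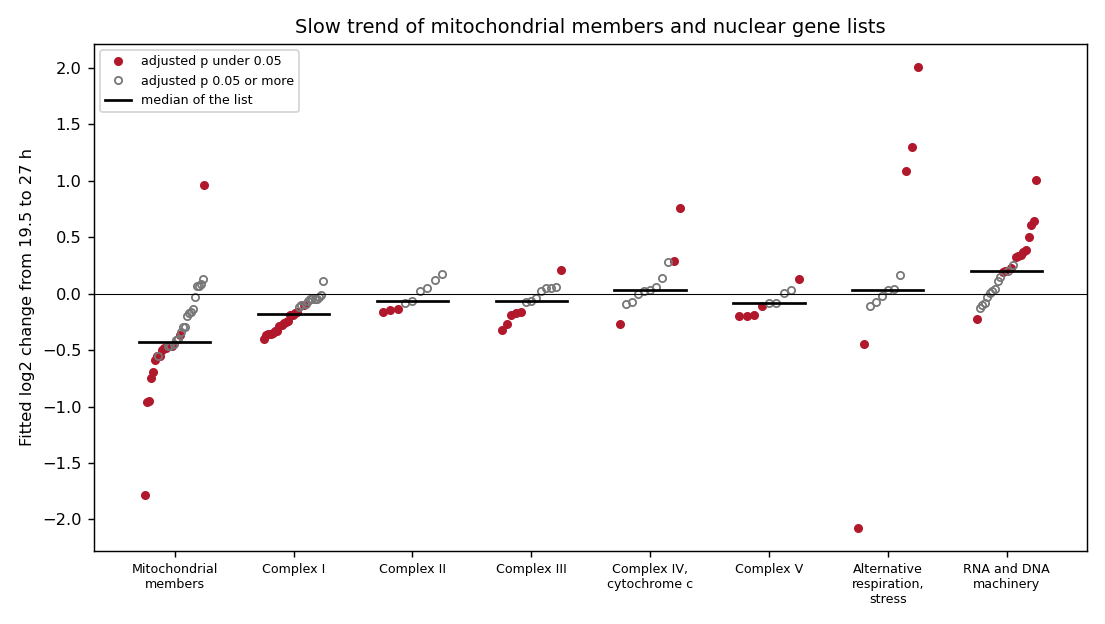
Fitted log2 change from 19.5 to 27 h (TMM scale) of the 32 mitochondrial members and of the 7 lists of nuclear genes, with each gene as a point (red where its adjusted p was under 0.05, open grey otherwise) and the list's median as a bar. The median was -0.43 for the members, -0.18 for complex I and 0.20 for the RNA and DNA machinery, against 0.01 for all genes, and with library totals the median of all genes moved to 0.32, that of complex I to 0.13 and that of the members to -0.12.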

How the data were processed

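The authors mapped reads to TAIR10 with STAR, after FastQC, and deposited whole-number counts per gene made with HTSeq, without normalization. The sources used here do not give versions, strand setting, treatment of reads that match several places or selection of poly(A) RNA. The extracted RNA is described as mRNA, so the counts are no measure of all mitochondrial RNA in the leaf. Values in 1 column, which matched no sample, were left out. Counts were tested with edgeR 4.0.16 (R 4.3.3), with TMM factors, replicate number as a factor as in the study's methods, 15 time terms, and all 19168 genes with a summed count of at least 480. The p-values were Benjamini-Hochberg adjusted, with a threshold of 0.05. All 48 libraries shared one estimate of the spread. Scripts were tested on simulated data. Library totals of 23572988 to 38763552 limit the precision of members with few counts, where counting error is large. Alternatives were limma-voom (3.58.1), DESeq2 (1.42.0), other scalings and filters, no replicate factor, and leaving out replicates or libraries. Members named individually were all annotated ones, the most counted, those with the smallest p, and the largest rises and falls, and in each nuclear list the 3 genes with the smallest p and AOX1A. Gene names and notes come from RefSeq (TAIR10.1) and the study's supplementary tables. The members and lists were chosen with earlier results of these data known. No replicate pair agreed within sampling noise (lowest chi-square per degree of freedom 8.06).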

Additional observations from a re-analysis of the deposited data

How the results depend on the processing

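Counts of called members are compared here with those of the edgeR test on all libraries. With library totals 10 members passed the joint test (76.3% of all genes), 3 rose (60.5%) and 4 fell (9.43%). Members varying faster than 2 h numbered 2, against 8365 of 19168 genes, and 3 were higher at 27 h, against 4901 of 19168 genes. Over the nuclear lists 76 genes passed the joint test, 78 rose and 2 fell with library totals. Without a filter on low counts 0 members had 2 to 5 h variation. Libraries with the same replicate number did not in general deviate together over time points (median correlation -0.07, against 0.04 between different numbers, over 11477 genes). Single pairs with the same number ran from -0.76 to 0.77, so a median cannot show whether some time points shared a batch. No replicate block gave 2 members with 2 to 5 h variation, 19 in the joint test and 14 falls, and 2 nuclear genes with 2 to 5 h variation, while the other counts without the block were within 1.5 times. DESeq2 gave 11 members and 7 nuclear genes with 2 to 5 h variation (17.4% of all genes) and 3 members faster than 2 h. Its size factors gave 2 nuclear genes with 2 to 5 h variation, and limma-voom gave 2 members faster than 2 h and 1 higher at 27 h. Without the 22.5 h replicate 1 and 24 h replicate 3 libraries 16 members and 18 nuclear genes had 2 to 5 h variation (28.6% of all genes). In the same setting 5 members were faster than 2 h (39.2% of all genes) and 1 was higher at 27 h. Leaving out each replicate in turn, or either of these libraries alone (chosen after seeing the data), the members passing numbered 0 to 22 in the joint test, 0 to 15 in 2 to 5 h variation, 0 to 5 faster than 2 h, 5 to 14 falling and 0 to 2 higher at 27 h, and over the nuclear lists 5 to 60 passed the joint test, 11 to 19 rose, 22 to 33 fell and 0 to 14 had 2 to 5 h variation. Without ATMG00020, ATMG01390 and ATMG01380, the 21 h share of the members was 1.59 times that of 23.5 h in place of 3.04. Nuclear TMM and the filter at 1 CPM gave like counts. Member counts with no share of all genes beside them or above are not read against a background. The causes were not tested, beyond the smaller number of libraries in the left-out sets. No called trend of a member changed sign under any setting run. Counts under about 10 per library limit the lowest members.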
